A study of Homo sapiens with 6 samples.

Results

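Fatty acid oxidation and PPAR target genes were followed in RNA-seq of TKT-overexpressing Huh7 cells and vector control cells. The 38 members are genes of fatty acid activation, oxidation and storage together with regulators and targets of PPAR receptors, and they were found by their symbol in the deposited count table. Of the 38, 37 were among the 22077 genes of the table, and CYP4A11 was not analysed here. By role, 22 members act in or at mitochondria, 4 in peroxisomes, 10 handle lipids outside these organelles or on their way to them, and 2 are regulators.

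Huh7 is a cell line from a human hepatocellular carcinoma. TKT encodes transketolase, an enzyme of the non-oxidative pentose phosphate pathway, and the study asked which transcripts differ when it is overexpressed. In 3 cultures TKT was overexpressed, from a plasmid that the methods name pTSB02-GFP-PURO, and 3 cultures were vector controls. The labels give the line as Hu7. Where the sequencing is described, the text of the study has Huh7 and its methods have HCCLM3, and the name nearest to the labels, Huh7, is used. Library totals were 37096156, 31188058 and 32406994 counts on overexpression and 31618541, 30148788 and 33815829 counts in control cells. TKT itself had 348402, 294602 and 308875 counts in the TKT-overexpressing cultures and 15626, 14256 and 17275 counts in the control cultures, a log2 fold change of 4.26 (adjusted p = 1.15e-25 in edgeR). Every library thus carried the TKT level of its label.

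Long-chain fatty acids are activated to acyl-CoA, carried into mitochondria on carnitine and shortened there in cycles of dehydrogenation, hydration, renewed dehydrogenation and thiolysis, while peroxisomes shorten very long and branched chains. PPARA, a nuclear receptor that binds fatty acids, drives many of these genes in hepatocytes during fasting, and genes of lipid droplets and lipase control respond to it as well.

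Counts were scaled to a common library size as CPM with TMM factors, and differences were tested gene by gene with edgeR's quasi-likelihood test, adjusted by Benjamini-Hochberg over all 14162 genes that passed the filter on low counts. Genes with an adjusted p under 0.05 were called. The processing was varied in 16 alternatives per gene, 15 for PDK4 and 14 for CD36. The unpaired ones are those other than a fit with the replicate number as a block. Fold changes are TKT overexpression relative to vector control on the log2 scale. Among the 38 members, 34 passed the filter and were tested. PPARGC1A, ACADL and BDH1 had at most 2 counts in any library and were not tested. LDHA and RPS18, which nearly every cell transcribes strongly, were listed at 1 to 6 counts in the same table, so a value near 0 here was not read as absence.

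Of the 34 tested members, 14 were called, 6 higher and 8 lower in TKT-overexpressing Huh7 cells. Over all tested genes 10.6% were called, 5.69% higher and 4.94% lower, and among the tested members these shares were 41.2%, 17.6% and 23.5%. The members were chosen with earlier results of these data known, so the difference in shares is a description and was not tested. The members that rose were PLIN2, ACSL1, CPT1A, ANGPTL4, ACAA2 and ACOT12, and those that fell were ACSL3, ACADSB, ACAA1, ACADVL, HADH, ACSS3, ACSL4 and ACACB. The median log2 fold change of the tested members was -0.01, against 0.00 over all tested genes, with 16 members above 0 and 18 below. The median absolute log2 fold change was 0.14 in the members and 0.12 over all tested genes, and the called members lay between -0.39 and 0.74. At the study's thresholds, an adjusted p under 0.05 with an absolute log2 fold change over 1, edgeR called 0 members, against 0.727% of all tested genes. With an unadjusted p under 0.05 and the same fold, 1 of the 34 members passed in edgeR, PDK4, against 1.46% of all tested genes. At the study's thresholds DESeq2 also called 0, but it gave an adjusted p to 32 of the 34 members, PDK4 not among them, and limma called 0 on log2(FPKM + 1), a scale on which the log2 fold change of PDK4 was 0.25. The shares of all genes that DESeq2 and limma called at these thresholds are not given here, so their counts of 0 were not read as a result about the members. In 20 of the 34 tested members (58.8%) the CPM of the groups did not overlap, 10 above and 10 below the control values, against 28.0% of all tested genes. For a single gene, the exact two-sided permutation test of 3 cultures against 3 cannot go below p = 0.1.

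**Figure D1:**
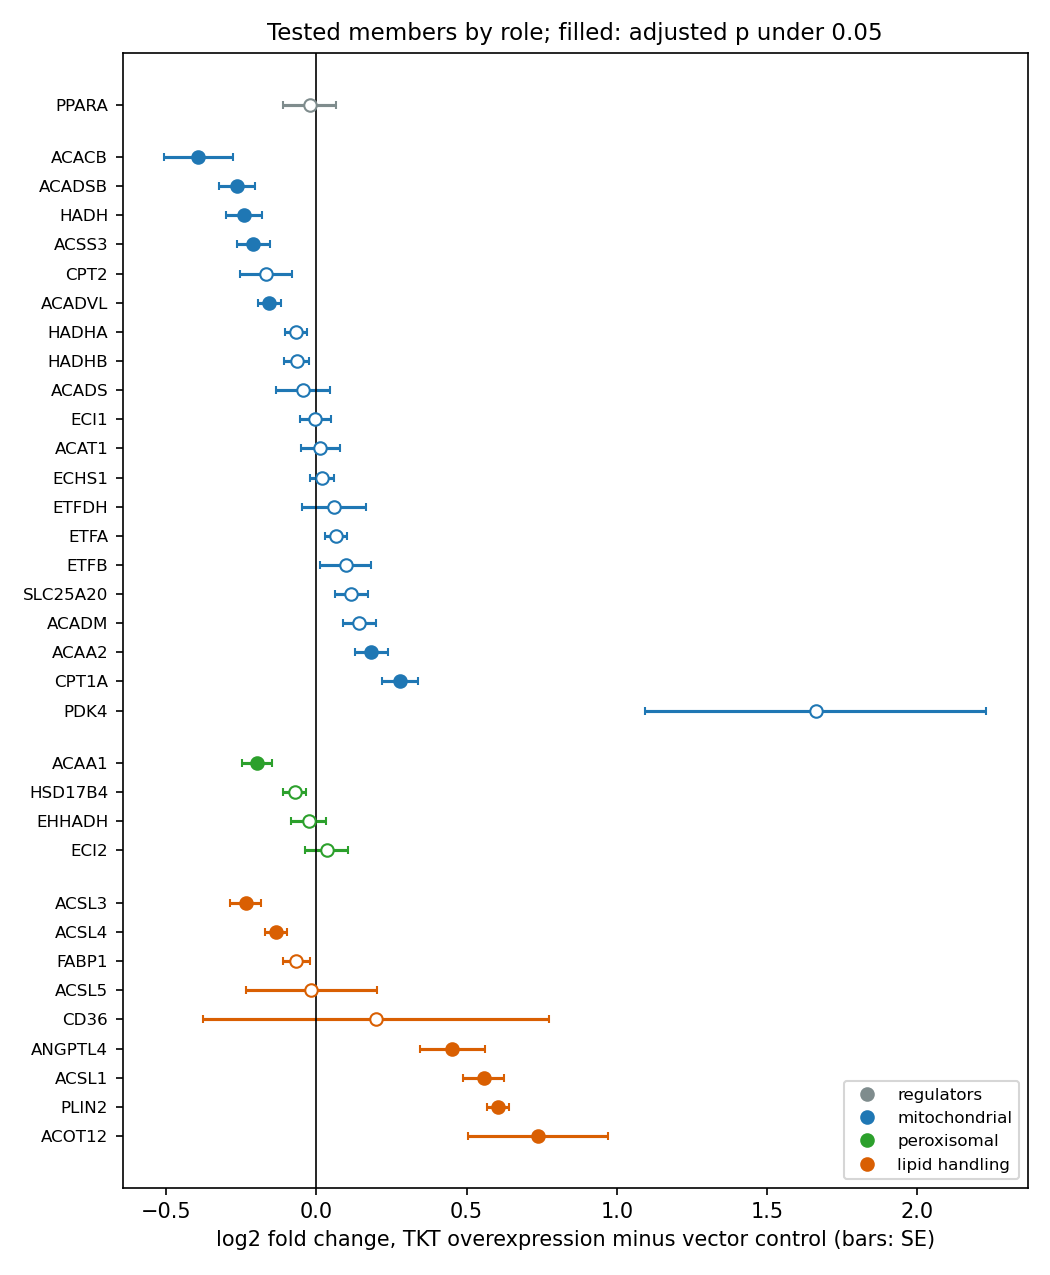
The log2 fold change of TKT overexpression relative to vector control (horizontal axis) is plotted for the 34 tested members, grouped by role, with bars of 1 standard error from edgeR and filled points at an adjusted p under 0.05. PLIN2, ACSL1, ANGPTL4 and ACOT12 lie to the right among the lipid handling members, mitochondrial members lie on both sides of 0, and CD36 and PDK4 have the widest bars.

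Lipid handling members held the largest called rises. Of the 10 members, 9 were tested, 4 rose and 2 fell. These were 44.4% and 22.2% of those tested, against 5.69% and 4.94% of all tested genes. The median log2 fold change of 0.20 was the value of CD36, which had 6 to 16 counts and did not pass the test, and its neighbours in order were ACSL5 at -0.02 and ANGPTL4 at 0.45. With a culture left out the median lay between 0.033 (control replicate 3) and 0.49 (control replicate 1). PLIN2 encodes perilipin 2, the main coat protein of lipid droplets in hepatocytes. It had 354, 365 and 346 CPM in the TKT-overexpressing cultures and 228, 231 and 241 CPM in the control cultures. The lowest TKT value was above the highest control value by more than the spread within either group, and the mean was 355 ± 9.21 CPM against 234 ± 6.96 CPM (SD, n = 3 each). PLIN2 rose (log2 fold change 0.60, standard error 0.04, edgeR adjusted p = 2.01e-10), and its 95% interval ran from 0.53 to 0.68.

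ACSL1, which activates long-chain fatty acids to acyl-CoA and is a known PPAR target, had 40.7, 43.8 and 40.9 CPM in the TKT-overexpressing cultures and 26.5, 27.6 and 31.1 CPM in the control cultures. The groups did not overlap, and the highest control value was that of replicate 3. ACSL1 rose (log2 fold change 0.56, standard error 0.07, edgeR adjusted p = 9.86e-06). ACSL3 and ACSL4 of the same enzyme family fell. ACSL3, a long-chain acyl-CoA synthetase of the endoplasmic reticulum and lipid droplets, had 115, 113 and 125 CPM in the TKT-overexpressing cultures and 129.8, 148 and 138 CPM in the control cultures. All 3 TKT values lay below all 3 control values, with control replicate 2 the highest, and ACSL3 fell (log2 fold change -0.23, standard error 0.05, edgeR adjusted p = 0.00501). ACSL4, which prefers arachidonic acid, had 538, 544 and 560.1 CPM in the TKT-overexpressing cultures and 586, 627 and 589 CPM in the control cultures. Its groups did not overlap, and it fell (log2 fold change -0.13, standard error 0.04, edgeR adjusted p = 0.0205). ACSL5, with between 69 and 107 counts, had a log2 fold change of -0.02 (adjusted p = 0.977 in edgeR). Per length, ACSL4 was the most abundant of the family, with 57.4 FPKM over the 6 libraries, then ACSL3 with 8.84 FPKM, ACSL1 with 5.38 FPKM and ACSL5 with 0.633 FPKM. Over 15 unpaired alternatives the adjusted p of ACSL3 lay between 3.83e-05 and 0.1004, and it exceeded 0.05 in limma on log2(FPKM + 1) (0.1004) or limma on log2(FPKM + 0.1) (0.0962). ACSL4 had an adjusted p between 0.000138 and 0.135 over 15 unpaired alternatives, above 0.05 with TKT replicate 1 (0.135), TKT replicate 2 (0.0645) or control replicate 2 (0.0640) left out and in limma on log2(FPKM + 1) (0.124) or limma on log2(FPKM + 0.1) (0.120).

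ANGPTL4 encodes a secreted inhibitor of lipoprotein lipase. It had 15.3, 16.4 and 15.5 CPM in the TKT-overexpressing cultures and 12.1, 9.87 and 12.5 CPM in the control cultures. Control replicate 2 was the lowest of the 6 values and no control culture reached a TKT-overexpressing one. ANGPTL4 rose (log2 fold change 0.45, standard error 0.11, edgeR adjusted p = 0.00868). ACOT12, a cytosolic acetyl-CoA thioesterase, was a low-abundance gene, with 105, 107 and 105 counts in the TKT-overexpressing cultures and 75, 56 and 49 counts in the control cultures. In CPM the groups did not overlap, and control replicate 1 was nearest to the TKT-overexpressing cultures. ACOT12 rose (log2 fold change 0.74, standard error 0.23, edgeR adjusted p = 0.0462), with a 95% interval of 0.25 to 1.22. Adjusted p for ACOT12 ranged from 0.0335 to 0.186 over 15 unpaired alternatives and was over 0.05 with TKT replicate 1 (0.0777), TKT replicate 2 (0.147), TKT replicate 3 (0.108), control replicate 2 (0.0870) or control replicate 3 (0.186) left out and in DESeq2 (0.0638) or limma on log2(FPKM + 0.1) (0.0525).

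FABP1, the fatty acid binding protein of hepatocyte cytosol, had 132, 131 and 127 CPM in the TKT-overexpressing cultures and 142, 129 and 137 CPM in the control cultures. These values overlapped, and the difference did not pass the test (log2 fold change -0.07, standard error 0.05, edgeR adjusted p = 0.425). CD36, a fatty acid uptake receptor, had 12, 16 and 12 counts in the TKT-overexpressing cultures and 16, 11 and 6 counts in the control cultures. At this depth a difference was not detectable, with a log2 fold change of 0.20 (adjusted p = 0.884 in edgeR) and a 95% interval of -0.995 to 1.39. Summed over the 9 members with a row, lipid handling transcripts came to 202 ± 1.43 FPKM on overexpression and 182 ± 1.05 FPKM in control cells (SD, n = 3 each). PLIN2 had 70.7 FPKM on overexpression, the highest level of them there, and 46.3 FPKM in control cells, below ACSL4 with 59.9 FPKM and FABP1 with 56.0 FPKM. Without PLIN2, the sums were 131 ± 1.90 FPKM and 136 ± 1.01 FPKM, so the order of the groups was the opposite.

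**Figure D2:**
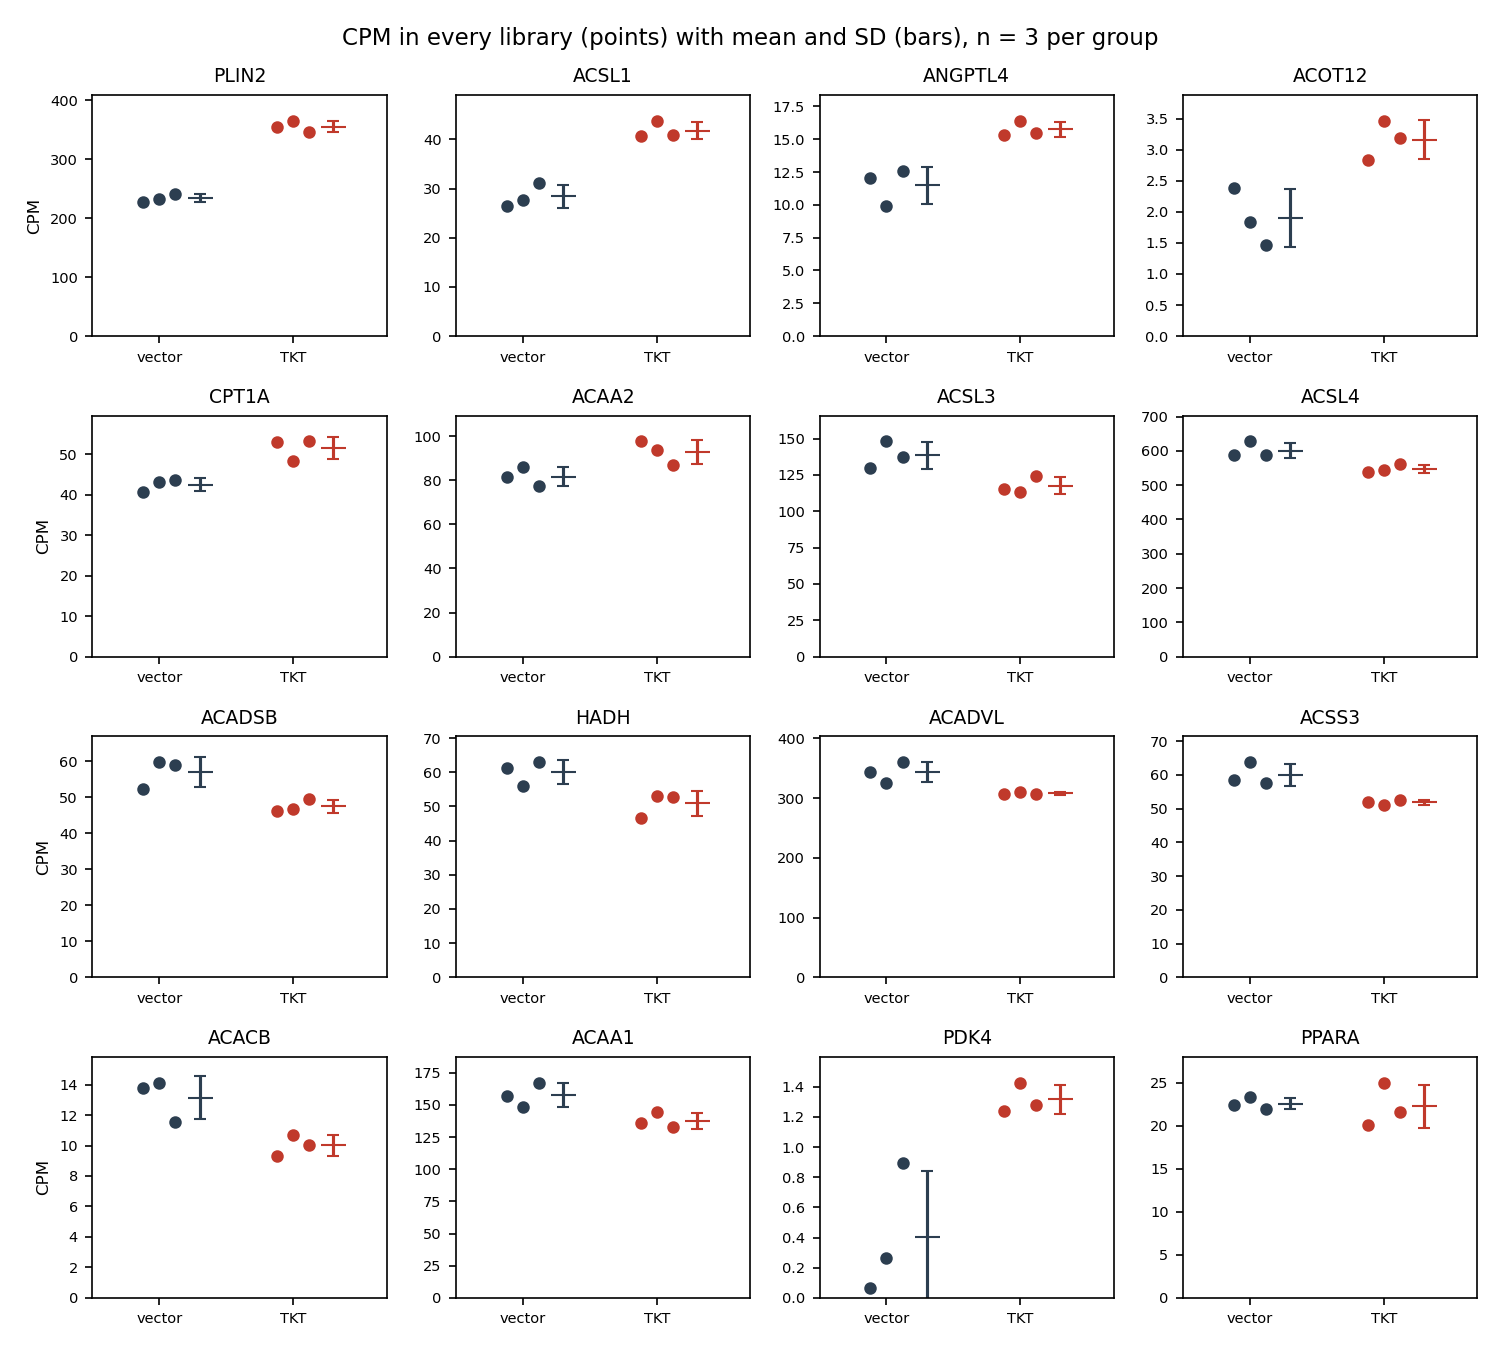
CPM in every library (points, vertical axis from 0) for the 14 called members, PDK4 and PPARA, with the mean and SD of the 3 cultures of each group beside them. In all 14 called members the 3 TKT-overexpressing cultures lie on one side of the 3 control cultures, whereas those of PPARA overlap.

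The sequence upstream of a gene is shown for the 4 called members with the smallest p, of which 3 rose and 1 fell. Each is a RefSeq promoter window of 300 bases (GRCh38.p14) that ends 50 bases after the transcription start, written in the direction of transcription, and for ACSL1 the most upstream of 5 listed windows is given. The windows are chr9:19127443-19127742 for PLIN2, chr4:184825919-184826218 for ACSL1 and chr11:68844228-68844527 for CPT1A, all on the minus strand, and chr2:222860786-222861085 for ACSL3 on the plus strand. Capitals mark a match to a motif that was searched on both strands.
PLIN2: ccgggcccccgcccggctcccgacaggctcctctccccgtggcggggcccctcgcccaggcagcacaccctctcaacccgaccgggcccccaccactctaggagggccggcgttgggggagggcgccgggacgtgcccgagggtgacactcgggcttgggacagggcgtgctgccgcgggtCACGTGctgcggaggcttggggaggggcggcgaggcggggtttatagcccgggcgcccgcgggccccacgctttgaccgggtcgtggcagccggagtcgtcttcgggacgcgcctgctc
ACSL1: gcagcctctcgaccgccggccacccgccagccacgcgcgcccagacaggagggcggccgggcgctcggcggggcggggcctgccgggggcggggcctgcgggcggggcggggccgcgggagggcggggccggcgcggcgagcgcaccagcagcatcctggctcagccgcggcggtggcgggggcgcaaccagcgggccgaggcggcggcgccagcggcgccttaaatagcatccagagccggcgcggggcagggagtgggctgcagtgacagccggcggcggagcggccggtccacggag
CPT1A: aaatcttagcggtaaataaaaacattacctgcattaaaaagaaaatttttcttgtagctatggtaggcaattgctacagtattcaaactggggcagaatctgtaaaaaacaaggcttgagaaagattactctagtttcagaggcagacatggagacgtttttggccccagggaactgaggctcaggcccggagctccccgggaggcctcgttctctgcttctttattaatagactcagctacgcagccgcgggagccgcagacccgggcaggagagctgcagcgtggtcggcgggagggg
ACSL3: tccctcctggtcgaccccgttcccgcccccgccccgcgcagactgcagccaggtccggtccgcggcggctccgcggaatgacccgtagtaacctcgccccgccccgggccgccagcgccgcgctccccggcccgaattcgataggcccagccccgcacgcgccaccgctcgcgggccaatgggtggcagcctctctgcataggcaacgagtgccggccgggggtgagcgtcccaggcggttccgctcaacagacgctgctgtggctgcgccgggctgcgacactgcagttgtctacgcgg
The motifs were AGGTCA, the half-site of nuclear receptors, a direct repeat of it spaced by 1 base, which is the form of a PPAR response element, and CACGTG, the E-box. PLIN2 holds 1 CACGTG, whose first base lies 69 bases before the start, and the other 3 windows hold none of the motifs. Of all 35116 RefSeq windows, 7.26% hold CACGTG, 13.8% AGGTCA and 0.0228% the exact repeat. The 33 members with a window have 52 windows, of which 2 hold CACGTG (PLIN2 and PPARGC1A), 2 hold AGGTCA (ACSL5 and FABP1) and 0 hold the exact repeat. Only exact matches inside the windows were counted, so inexact repeats and sites outside the windows were not seen. ETFDH, ACSS3, ACAA1, EHHADH and CYP4A11 had no entry. G and C made up 76.7% of the PLIN2 window, 82.3% of that of ACSL1, 74.0% of that of ACSL3 and 50% of that of CPT1A.

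Mitochondrial members divided between both directions. Of the 22 members, 20 were tested, 2 rose and 5 fell, and the median log2 fold change was 0.00. The shares called were 10% higher and 25% lower, against 5.69% and 4.94% of all tested genes. The gate of the pathway comes first. CPT1A, the hepatic carnitine palmitoyltransferase of the outer mitochondrial membrane and the rate-limiting step of long-chain oxidation, had 53.1, 48.3 and 53.1 CPM in the TKT-overexpressing cultures and 40.5, 43.2 and 43.7 CPM in the control cultures. The lowest TKT value, that of replicate 2, was above the highest control value. CPT1A rose (log2 fold change 0.28, standard error 0.06, edgeR adjusted p = 0.00323), with a 95% interval of 0.16 to 0.40. ACACB makes malonyl-CoA at the mitochondrial surface, and malonyl-CoA inhibits CPT1A. It had 9.28, 10.7 and 10.03 CPM in the TKT-overexpressing cultures and 13.7, 14.1 and 11.5 CPM in the control cultures. The groups did not overlap, with control replicate 3 the closest to the TKT-overexpressing cultures, and ACACB fell (log2 fold change -0.39, standard error 0.11, edgeR adjusted p = 0.0299). The next steps of the carnitine shuttle did not pass the test. SLC25A20, the carnitine-acylcarnitine carrier of the inner membrane, had a log2 fold change of 0.12 (adjusted p = 0.192 in edgeR), and CPT2, which restores acyl-CoA inside, one of -0.17 (adjusted p = 0.251 in edgeR). For ACACB, the adjusted p lay between 0.0175 and 0.190 over 15 unpaired alternatives and was above 0.05 with TKT replicate 1 (0.142), TKT replicate 3 (0.0775), control replicate 1 (0.126) or control replicate 2 (0.107) left out and in limma on log2(FPKM + 1) (0.176) or limma on log2(FPKM + 0.1) (0.190).

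The first dehydrogenation of each cycle is made by acyl-CoA dehydrogenases of different chain length. ACADVL, which takes very long chains and was the most abundant of them at 67.3 FPKM, had 307, 311 and 307 CPM in the TKT-overexpressing cultures and 344, 326 and 360.3 CPM in the control cultures. The TKT-overexpressing cultures were close together and below every control culture, and ACADVL fell (log2 fold change -0.16, standard error 0.04, edgeR adjusted p = 0.0115). ACADSB, which acts on short branched chains from isoleucine, had 46.1, 46.8 and 49.6 CPM in the TKT-overexpressing cultures and 52.2, 59.7 and 59.0 CPM in the control cultures. Control replicate 1 was nearest to the other group without reaching it, and ACADSB fell (log2 fold change -0.26, standard error 0.06, edgeR adjusted p = 0.00591). ACADM, the medium-chain enzyme, had 54.7, 54.0 and 52.9 CPM in the TKT-overexpressing cultures and 49.1, 51.2 and 46.1 CPM in the control cultures. Its TKT values all lay above its control values, but the difference did not pass the test (log2 fold change 0.14, standard error 0.06, edgeR adjusted p = 0.112). ACADS, the short-chain enzyme, had a log2 fold change of -0.05 (adjusted p = 0.820 in edgeR). ACADL, the long-chain enzyme, was listed at 2, 0 and 0 counts in the TKT-overexpressing cultures and 0, 0 and 0 counts in the control cultures. Over 15 unpaired alternatives the adjusted p of ACADVL lay between 0.00103 and 0.0709, and it exceeded 0.05 with TKT replicate 1 (0.0602) or control replicate 3 (0.0709) left out and in limma on log2(FPKM + 1) (0.0546) or limma on log2(FPKM + 0.1) (0.0519). ACADSB had an adjusted p between 0.000383 and 0.0698 over 15 unpaired alternatives, above 0.05 with TKT replicate 1 (0.0520) left out and in limma on log2(FPKM + 1) (0.0698) or limma on log2(FPKM + 0.1) (0.0666). That of ACADM lay between 0.0436 and 0.358 over 16 alternatives and was 0.0436 with control replicate 2 left out.

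HADHA, the alpha subunit of the trifunctional protein that completes the cycle for long chains, had 296, 302 and 284 CPM in the TKT-overexpressing cultures and 315, 302 and 307 CPM in the control cultures. The values lay between 284 and 315 CPM, and HADHA did not pass the test (log2 fold change -0.07, standard error 0.04, edgeR adjusted p = 0.278). Its partner subunit HADHB had a log2 fold change of -0.07 (adjusted p = 0.383 in edgeR). HADH, the dehydrogenase of medium and short chains, had 46.7, 53.1 and 52.8 CPM in the TKT-overexpressing cultures and 61.2, 56.0 and 63.0 CPM in the control cultures. TKT replicate 1 was the lowest and control replicate 2 the closest to the other group, with no overlap, and HADH fell (log2 fold change -0.24, standard error 0.06, edgeR adjusted p = 0.0133). ACAA2, the mitochondrial thiolase, had 97.6, 93.5 and 86.9 CPM in the TKT-overexpressing cultures and 81.5, 86.1 and 77.3 CPM in the control cultures. The lowest TKT value, 86.9 CPM, exceeded the highest control value, 86.1 CPM, only narrowly, and ACAA2 rose (log2 fold change 0.18, standard error 0.06, edgeR adjusted p = 0.0366). ECHS1, the short-chain enoyl-CoA hydratase, was the most abundant of all members per length, with 266 FPKM, and had a log2 fold change of 0.02 (adjusted p = 0.832 in edgeR). ECI1, an isomerase for unsaturated chains, and ACAT1, the thiolase of acetoacetyl-CoA, had log2 fold changes of -0.00 and 0.01. Adjusted p for HADH ranged from 0.00170 to 0.127 over 15 unpaired alternatives and was over 0.05 with TKT replicate 1 (0.127), control replicate 1 (0.0678) or control replicate 3 (0.0640) left out and in limma on log2(FPKM + 1) (0.118) or limma on log2(FPKM + 0.1) (0.117). For ACAA2, the adjusted p lay between 0.00769 and 0.218 over 15 unpaired alternatives and was above 0.05 with TKT replicate 1 (0.218), TKT replicate 2 (0.0849), control replicate 1 (0.114) or control replicate 3 (0.166) left out and in limma on log2(FPKM + 1) (0.103) or limma on log2(FPKM + 0.1) (0.0994).

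The carriers of electrons from these dehydrogenases to the respiratory chain did not pass the test, with log2 fold changes of 0.06 for ETFA, 0.10 for ETFB and 0.06 for ETFDH. ACSS3, a mitochondrial short-chain acyl-CoA synthetase, had 52.0, 51.1 and 52.6 CPM in the TKT-overexpressing cultures and 58.7, 63.8 and 57.5 CPM in the control cultures. All 3 TKT values lay below all 3 control values, and ACSS3 fell (log2 fold change -0.21, standard error 0.05, edgeR adjusted p = 0.0167). BDH1, which interconverts ketone bodies, was listed at 1, 0 and 2 counts in the TKT-overexpressing cultures and 0, 1 and 0 counts in the control cultures. Over 15 unpaired alternatives the adjusted p of ACSS3 lay between 0.00112 and 0.169, and it exceeded 0.05 with TKT replicate 1 (0.0728), TKT replicate 2 (0.0548) or control replicate 2 (0.0667) left out and in limma on log2(FPKM + 1) (0.167) or limma on log2(FPKM + 0.1) (0.169). Of the exon bases of ACSS3, 13.8% lie under exons of LIN7A and PPFIA2 on the other strand (GENCODE 29), and since the counting is not stated to use strand, reads of the genes cannot be told apart there.

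PDK4 encodes a kinase that switches off pyruvate dehydrogenase and thereby favours fatty acids as fuel. It was a low-abundance gene, with 46, 44 and 42 counts in the TKT-overexpressing cultures and 2, 8 and 30 counts in the control cultures. The TKT-overexpressing cultures were alike and above every control culture, while the control cultures ranged from 2 to 30 counts, with replicate 3 far above replicate 1. The log2 fold change was 1.66 (standard error 0.57, 95% interval 0.45 to 2.87), and it did not pass the test (edgeR adjusted p = 0.0776). PDK4 reached the filter only through the TKT-overexpressing cultures and control replicate 3. Its adjusted p lay between 0.00193 and 0.217 over 15 alternatives. With control replicate 3, the highest control, left out, PDK4 reached the filter only through the TKT-overexpressing cultures, so that fit was not read as support. The log2 fold change of PDK4 was 2.99 there (edgeR adjusted p = 0.00193), and with no filter on low counts 1.67 (edgeR adjusted p = 0.00223). It was 1.16 with control replicate 1 left out (adjusted p = 0.159), 1.43 with control replicate 2 left out (adjusted p = 0.217) and 1.15 in limma on log2(FPKM + 0.1) (adjusted p = 0.0699), and none of these passed the test. The counts of PDK4 were all even. In the table as a whole, a count of 2 was more frequent (7006 values) than a count of 1 (3944) or 3 (1952).

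Peroxisomal members were few and only ACAA1 was called. The 4 members were all tested, 0 rose and 1 fell, and the median log2 fold change was -0.05. The shares called were 0% higher and 25% lower, against 5.69% and 4.94% of all tested genes. At an unadjusted p under 0.05, 0 were higher and 1 lower in edgeR, where 23.8% of all tested genes passed, and at an adjusted p under 0.05 DESeq2 called 0 higher and 1 lower, against 13.3% of the genes to which it gave an adjusted p. ACAA1, the peroxisomal thiolase, had 136, 145 and 133 CPM in the TKT-overexpressing cultures and 157, 149 and 167 CPM in the control cultures. No value of the TKT-overexpressing cultures reached a control value, and ACAA1 fell (log2 fold change -0.20, standard error 0.05, edgeR adjusted p = 0.0107). Exons of DLEC1 on the other strand, together with those of a small RNA, cover 21.2% of the exon bases of ACAA1. EHHADH, the peroxisomal bifunctional enzyme and a classical PPARA target, had 41.5, 42.9 and 45.03 CPM in the TKT-overexpressing cultures and 42.2, 43.3 and 46.3 CPM in the control cultures. The groups overlapped, and the difference did not pass the test (log2 fold change -0.03, standard error 0.06, edgeR adjusted p = 0.848, 95% interval -0.15 to 0.10). HSD17B4, the other bifunctional enzyme, had a log2 fold change of -0.07 (adjusted p = 0.278 in edgeR) and ECI2, a peroxisomal isomerase, one of 0.03 (adjusted p = 0.831 in edgeR). ACAA1 had an adjusted p between 0.000597 and 0.0695 over 15 unpaired alternatives, above 0.05 with TKT replicate 1 (0.0581) or control replicate 3 (0.0695) left out and in limma on log2(FPKM + 1) (0.0598) or limma on log2(FPKM + 0.1) (0.0571).

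Of the regulators among the members, PPARA was tested and not called, and PPARGC1A was not tested. PPARA had 20.1, 25.0 and 21.6 CPM in the TKT-overexpressing cultures and 22.4, 23.3 and 22.02 CPM in the control cultures. TKT replicate 2 was the highest and TKT replicate 1 the lowest of the 6, so the groups overlapped fully, and the log2 fold change was -0.02 with a 95% interval of -0.21 to 0.16 (edgeR adjusted p = 0.918). PPARGC1A, the coactivator that raises oxidation genes on fasting, was listed at 0, 2 and 1 counts in the TKT-overexpressing cultures and 0, 0 and 0 counts in the control cultures.

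**Figure D3:**
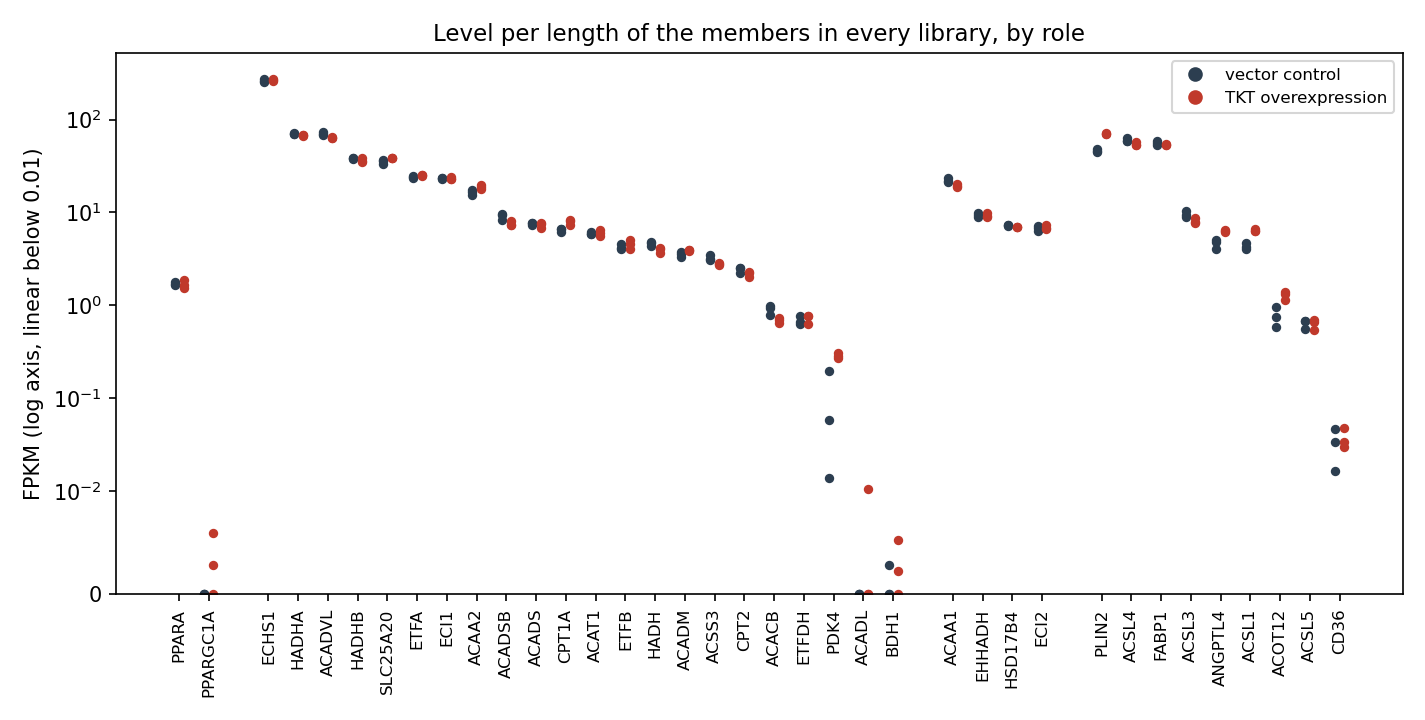
FPKM (vertical log axis, linear below 0.01) of the 37 members with a row in every library, ordered by level within each role. ECHS1 is the most abundant member at 266 FPKM, and PPARGC1A, ACADL and BDH1 lie at or near 0 in both groups.

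Per length, mitochondrial members summed to 590 ± 4.60 FPKM on overexpression and 591 ± 14.5 FPKM in control cells (SD, n = 3 each), a difference within the spread of the control cultures. Peroxisomal members summed to 42.4 ± 0.424 FPKM and 45.5 ± 1.84 FPKM. Among the tested members, levels ran from 0.0344 FPKM for CD36 to 266 FPKM for ECHS1. Bulk RNA of a culture does not separate fewer cells that express a gene from less of its RNA per cell.

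Genes of the same pathways outside the members were counted separately, and a difference from the members was not tested. Of 57 other genes of fatty acid and branched-chain oxidation, 53 were tested, 0 rose and 5 fell, that is 9.43% against 10.6% of all tested genes, and their median log2 fold change was -0.08. In edgeR, 3 of them were higher and 10 lower at an unadjusted p under 0.05, against 23.8% of all tested genes in either direction, and at an adjusted p under 0.05 DESeq2 called 0 higher and 6 lower of 47, against 13.3%. The 5 that fell were IVD (log2 fold change -0.26, standard error 0.06, edgeR adjusted p = 0.00411) and GCDH (log2 fold change -0.23, standard error 0.07, edgeR adjusted p = 0.0349), dehydrogenases of branched-chain and lysine breakdown, PECR (log2 fold change -0.29, standard error 0.07, edgeR adjusted p = 0.0107), a peroxisomal enoyl-CoA reductase, OXCT1 (log2 fold change -0.22, standard error 0.06, edgeR adjusted p = 0.0195), which uses ketone bodies, and DBI (log2 fold change -0.17, standard error 0.05, edgeR adjusted p = 0.0250), the acyl-CoA binding protein. IVD had 41.2, 45.3 and 44.2 CPM against 51.3, 51.4 and 53.8 CPM, and PECR 26.6, 25.7 and 28.0 CPM against 33.6, 33.1 and 31.3 CPM, without overlap in either. The values of GCDH and DBI overlapped. Adjusted p for IVD ranged from 0.00113 to 0.0544 over 15 unpaired alternatives and was over 0.05 with TKT replicate 1 (0.0544) left out. For GCDH, the adjusted p lay between 0.000893 and 0.177 over 15 unpaired alternatives and was above 0.05 with TKT replicate 1 (0.177), TKT replicate 2 (0.0590), TKT replicate 3 (0.0550), control replicate 1 (0.157) or control replicate 3 (0.139) left out and in limma on log2(FPKM + 1) (0.132) or limma on log2(FPKM + 0.1) (0.127). Over 15 unpaired alternatives the adjusted p of PECR lay between 0.00270 and 0.0565, and it exceeded 0.05 with TKT replicate 2 (0.0522) or control replicate 1 (0.0565) left out. OXCT1 had an adjusted p between 0.00454 and 0.143 over 15 unpaired alternatives, above 0.05 with TKT replicate 1 (0.143) or control replicate 2 (0.0728) left out and in limma on log2(FPKM + 1) (0.0684) or limma on log2(FPKM + 0.1) (0.0660). Adjusted p for DBI ranged from 0.00163 to 0.141 over 15 unpaired alternatives and was over 0.05 with TKT replicate 1 (0.117), TKT replicate 3 (0.103), control replicate 1 (0.141) or control replicate 3 (0.0805) left out and in limma on log2(FPKM + 1) (0.0800) or limma on log2(FPKM + 0.1) (0.0751).

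Of 60 other genes of PPAR signalling and its targets, 51 were tested, 6 rose and 5 fell (21.6% against 10.6% of all tested genes), and their median log2 fold change was -0.04. KLF10, a transcription factor that responds to TGF-beta and glucose, had 50.1, 49.3 and 49.3 CPM against 30.3, 31.1 and 28.7 CPM in TKT-overexpressing and control cultures and rose (log2 fold change 0.72, standard error 0.06, edgeR adjusted p = 1.32e-08). TXNIP, a glucose-responsive inhibitor of thioredoxin, had 24.2, 26.3 and 26.6 CPM against 14.1, 12.01 and 12.7 CPM and rose (log2 fold change 0.99, standard error 0.09, edgeR adjusted p = 1.28e-07). Both stood clear of their control values by more than the spread within the groups. The catalytic AMPK subunit PRKAA2 rose by 0.41 and the phosphatidate phosphatase LPIN2 by 0.15 on the log2 scale (edgeR adjusted p = 0.00646 and 0.0144). SCD, the stearoyl-CoA desaturase, had 1318, 1302 and 1308 CPM against 1729, 1708 and 1662 CPM and fell (log2 fold change -0.38, standard error 0.03, edgeR adjusted p = 9.84e-08). FADS2, the delta-6 desaturase, had 348, 353 and 331 CPM against 434, 421 and 443 CPM and fell (log2 fold change -0.33, standard error 0.04, edgeR adjusted p = 2.05e-06). HNF4A, a master regulator of hepatocyte genes, and PDK3, a relative of PDK4, had log2 fold changes of -0.15 (adjusted p = 0.00720 in edgeR) and -0.33 (adjusted p = 0.0134 in edgeR). The other 3 called genes were SIRT1 and CREB3L3, which rose, and APOA2, which fell. For SIRT1, the adjusted p lay between 0.010 and 0.0926 over 15 unpaired alternatives and was above 0.05 with TKT replicate 1 (0.0554), TKT replicate 3 (0.0644), control replicate 1 (0.0926) or control replicate 3 (0.0551) left out. Over 15 unpaired alternatives the adjusted p of CREB3L3 lay between 0.00146 and 0.149, and it exceeded 0.05 with TKT replicate 1 (0.149), TKT replicate 3 (0.0729), control replicate 2 (0.0701) or control replicate 3 (0.112) left out and in limma on log2(FPKM + 1) (0.0510). APOA2 had an adjusted p between 0.00358 and 0.135 over 15 unpaired alternatives, above 0.05 with TKT replicate 1 (0.135), TKT replicate 3 (0.107), control replicate 1 (0.111) or control replicate 3 (0.0928) left out and in edgeR with upper quartile scaling (0.0536) or limma on log2(FPKM + 1) (0.0524). Adjusted p for PRKAA2 ranged from 6.07e-06 to 0.0813 over 15 unpaired alternatives and was over 0.05 in limma on log2(FPKM + 1) (0.0813) or limma on log2(FPKM + 0.1) (0.0780). For LPIN2, the adjusted p lay between 0.00311 and 0.0762 over 15 unpaired alternatives and was above 0.05 with TKT replicate 1 (0.0762), control replicate 1 (0.0574) or control replicate 3 (0.0699) left out. Over 15 unpaired alternatives the adjusted p of HNF4A lay between 0.000284 and 0.0555, and it exceeded 0.05 with TKT replicate 1 (0.0555) left out. PDK3 had an adjusted p between 0.00414 and 0.148 over 15 unpaired alternatives, above 0.05 with TKT replicate 2 (0.0640), control replicate 1 (0.0615) or control replicate 2 (0.0510) left out and in limma on log2(FPKM + 1) (0.142) or limma on log2(FPKM + 0.1) (0.148). The other PPAR receptors did not pass the test, PPARD with a log2 fold change of 0.01 (adjusted p = 0.959 in edgeR) and PPARG with one of 0.10 (adjusted p = 0.261 in edgeR). FGF21, a hormone induced by PPARA, had 6, 0 and 14 counts in the TKT-overexpressing cultures and 2, 8 and 1 counts in the control cultures and was not tested.

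Markers of hepatocytes were present in every library, ALB with between 7801 and 8154 CPM and AFP with between 8292 and 8704 CPM, except APOB, which was listed at 0 to 6 counts. Of the 14 hepatocyte markers, 13 were tested, 4 rose (FGB, FGA, APOH and FOXA2) and 1 fell (CEBPA), 38.5% against 10.6% of all tested genes. Of 21 markers of other cell types, 16 had a row, 6 were tested, 0 rose and 1 fell, LYZ, at 119, 115 and 122 CPM against 144, 153 and 157 CPM (log2 fold change -0.35, standard error 0.05, edgeR adjusted p = 1.71e-05). At an unadjusted p under 0.05 the same count was 0 higher and 1 lower, against 23.8% of all tested genes in either direction. LYZ was the most abundant of the 16, whose summed level was 118, 115 and 118 FPKM on overexpression and 134, 139 and 138 FPKM in control cells. CD68, VWF, COL1A2, LUM and KRT7 had at most 2 counts in any library. Others were well above that, SOX9 with 5079 to 6094 counts, PECAM1 with 472 to 717 and CD14 with 213 to 290. SOX9, PECAM1 and CD14 were not called. The part of all these markers in the differences among the members was not tested.

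**Figure D4:**
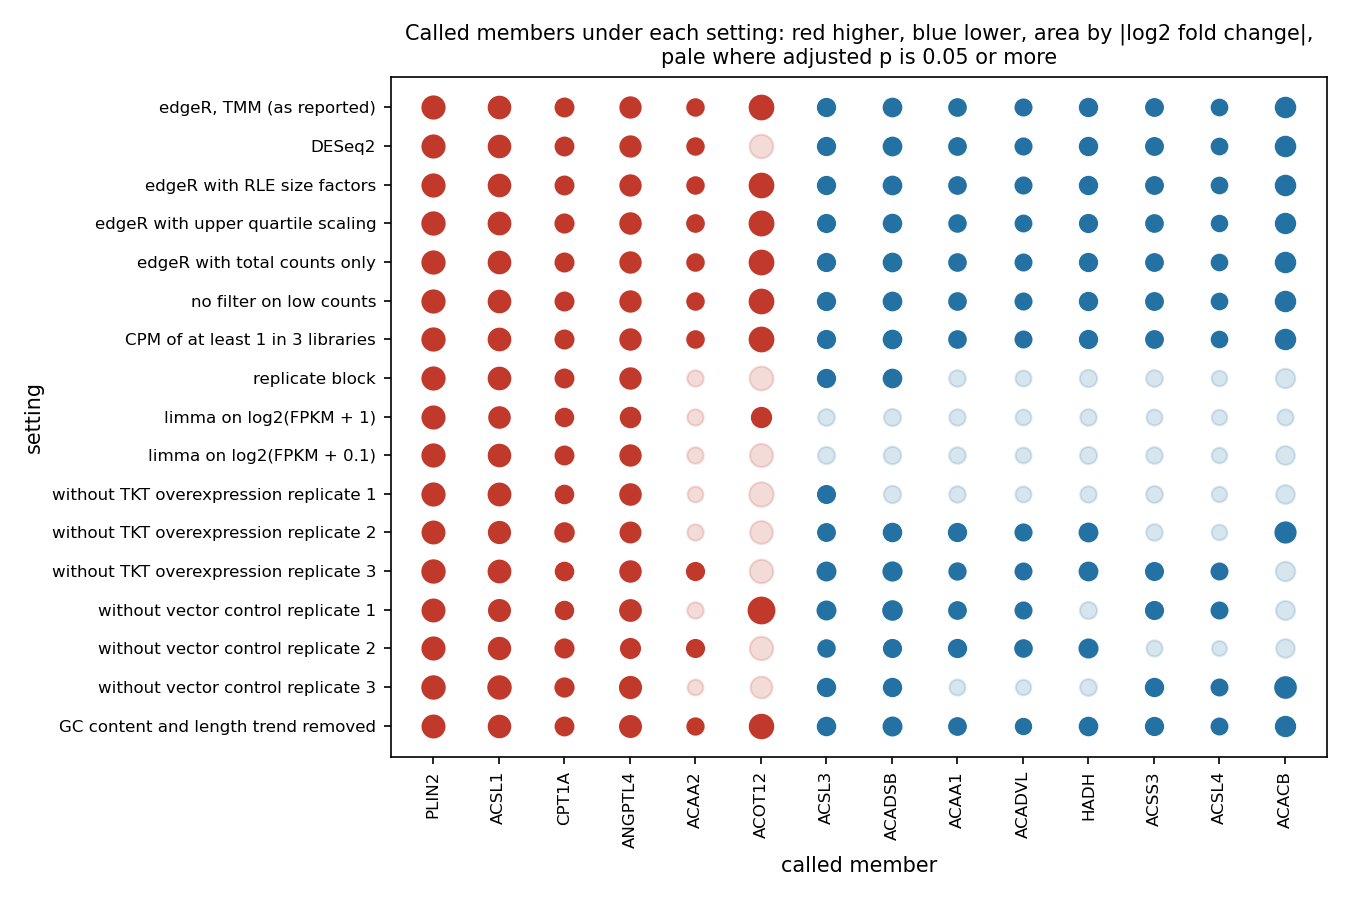
For the 14 called members (horizontal axis), each row is a way of processing the data, with red for higher, blue for lower, area growing with the absolute log2 fold change and pale points where the adjusted p was 0.05 or more. PLIN2, ACSL1, CPT1A and ANGPTL4 were under 0.05 in all 16 alternatives, and no called member changed its direction in any of them.

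Across the alternatives, 4 of the 14 called members had an adjusted p under 0.05 in all 16 (PLIN2, ACSL1, CPT1A and ANGPTL4), and 5 had one in all 6 fits that left out 1 culture, those 4 and ACSL3. With TKT replicate 1 left out, 5 of the 14 remained called, 4 higher and 1 lower, while the share of all tested genes called fell from 10.6% to 5.46%. With control replicate 2 left out 5 members were lower, and with control replicate 3 left out likewise 5, against 5.26% and 3.20% of all tested genes. On the deposited FPKM, limma called 5 members higher and 0 lower with a pseudocount of 1 and 4 higher and 0 lower with 0.1, against 5 higher and 8 lower with DESeq2 on the counts. Of all tested genes, limma called 5.84% with a pseudocount of 1 and 5.83% with 0.1, with 2.34% lower in each, and DESeq2 called 13.3% of the 11360 genes to which it gave an adjusted p. At an unadjusted p under 0.05, edgeR had 17 of the 34 members, 9 higher and 8 lower, against 23.8% of all tested genes in either direction. Each of the 14 kept its direction in each alternative.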

How the data were processed

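RNA of 6 cultures was sequenced, 3 per group. Per the labels and methods, the authors trimmed reads with fastp 0.22.0 and aligned them with HISAT2 2.1.0 to hg38, and took reads per gene with featureCounts. They deposited counts per gene symbol, as whole numbers without normalization, and FPKM, with the gene lengths not given in the sources used here. The methods say of the experiments in general that they were repeated independently, and the labels call the samples replicate biosamples, without saying how the sequenced cultures were grown, so p-values measure the spread between these samples, which may be technical.

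In R 4.3.3, counts were tested with edgeR 4.0.16 (filterByExpr by group with a minimum count of 10, TMM, robust quasi-likelihood), with Benjamini-Hochberg adjustment over all tested genes. Alternatives were DESeq2 1.42.0, other scalings, filters and thresholds, leaving out each culture, a block for the replicate number, limma 3.58.1 (log2 of FPKM plus 1 or 0.1) and, chosen after seeing the data, a GC content and length trend removed, with values for 94.1% of tested genes. Scripts were tested on simulated data. The members and lists were chosen with earlier results of these data known. Named genes are called members, 13 fixed members, up to 8 called genes of each further list and 5 fixed ones, 2 of which are not reported here. Others named were chosen after their values were seen. Promoters are from RefSeq, gene positions from GENCODE 29.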

Additional observations from a re-analysis of the deposited data

How the results depend on the processing

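TKT was called in every alternative, with a log2 fold change of 4.24 to 4.28 and of 4.22 to 4.29 with a culture left out. Under DESeq2, other scalings and other filters, 5 to 7 members were higher and 8 lower. Of all genes, these fits called between 7.89% (no filter on low counts) and 13.3% (DESeq2), against 10.6% in the main fit. With a CPM of at least 1 in 3 libraries the share was 12.5%. A GC content and length trend was removed in an alternative chosen after seeing the data. There 6 members were higher and 8 lower, while 15.05% of all genes with values were called. That fit called 1 of the other oxidation genes higher and 7 lower, and 8 other PPAR pathway genes higher and 6 lower. The fit with no filter on low counts also called 1 of the other oxidation genes higher. With an absolute log2 fold change over 1, the count was 0 in each direction for members and for both other lists, against 0.727% of all tested genes. At an adjusted p under 0.01, which 4.79% of all tested genes passed, members were 4 higher and 2 lower, with 1 mitochondrial member higher and 1 lower, 0 peroxisomal lower and 1 lipid handling lower, the other oxidation genes had 1 lower, and the other PPAR pathway genes 3 higher and 3 lower.

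On FPKM, limma called 5.84% (pseudocount of 1) and 5.83% (0.1) of all tested genes, and 0 members lower with either pseudocount, hence 0 mitochondrial, 0 peroxisomal and 0 lipid handling, and 1 mitochondrial higher. It called 2 other oxidation genes lower with either, and 3 other PPAR pathway genes lower with a pseudocount of 1. The cause was not tested.

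With the replicate number as a block, 4.92% of all tested genes were called, against 10.6% without it. There 4 members were higher and 2 lower, 6 of the 14 called ones, with 1 mitochondrial higher and 1 lower, 0 peroxisomal lower and 1 lipid handling lower, 2 other oxidation genes lower, and 3 higher and 2 lower among other PPAR pathway genes. The calls it ended were those of 8 members (ACACB, ACADVL, HADH, ACAA2, ACSS3, ACAA1, ACSL4 and ACOT12, edgeR adjusted p 0.0614 to 0.110), of OXCT1, GCDH and DBI (0.0578 to 0.122) and of SIRT1, LPIN2, CREB3L3, PDK3, APOA2 and HNF4A (0.0614 to 0.141). TKT had 4.26 in that fit. Cultures of the same number deviated from their group means with correlations of -0.01, -0.06 and 0.02 across genes, and not every culture correlated best with its own number. Correlations this near 0 cannot decide whether cultures of the same number were grown or prepared together, which the sources do not state. The fits with and without the block are therefore both given.

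With 1 culture left out, and so fewer samples, 5.46% to 10.9% of all tested genes were called. Members were 4 to 6 higher and 1 to 7 lower, mitochondrial 1 to 3 higher and 0 to 4 lower, peroxisomal 0 to 1 lower, lipid handling 3 to 4 higher and 1 to 2 lower, other oxidation genes 0 to 1 higher and 1 to 4 lower, and other PPAR pathway genes 3 to 6 higher and 3 to 5 lower. Uncalled values near 0 changed sign: PPARA lay between -0.115 and 0.0443, EHHADH between -0.0578 and 0.0129, CD36 between -0.123 and 0.570 and PPARD between -0.0554 and 0.0881. Over all alternatives of single genes, not only those with a culture left out, 544 fits kept direction and side of the threshold. Of the rest, 110 lost the call, 6 gained it and 9 changed sign. CD36, with 6 to 16 counts, had a 95% interval of -0.995 to 1.39 at this depth.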
